A study of Mus musculus with 4 samples.

Results

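Away from the stretches of the genome that carry many separate contacts, the SRSF4-GFP pull-down left 12 nuclear runs of crosslink sites that were both dense and wide. SRSF4 is a serine and arginine-rich splicing factor, and where it contacts RNA was mapped by iCLIP, a method in which ultraviolet light fixes a protein to RNA and the start of each cDNA marks the fixed nucleotide. A run joins sites of 1 strand that each lie less than 500 nt after the one before. The 12 runs were chosen by their sites: 50 or more sites, a width over 100 nt, and a region of fewer than 10 clusters (clusters are groups of sites with steps of at most 50 nt, and clusters of 1 strand with gaps under 20 kb form a region). Of 6415 runs in the list, 6405 were nuclear and 41 of these had 50 or more sites. Of the 41, 22 lay in regions of 10 or more clusters, 5 were at most 100 nt wide and 2 were left out by position on chromosome 17. A locus on chromosome 1 was also left out by position and held no run of 50 or more sites. The number of sites, the width and the clusters of the 12 runs are therefore descriptions, and no test was made on them.

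All 4 libraries belong to the same group: neonatal cardiomyocytes of C57BL/6 mice at P0 or P1. The cells were transfected with 15 μg of modified RNA for SRSF4-GFP and irradiated 48 h later with 100 mJ at 254 nm. There is no control group, and the sites come as a list pooled over 5 data sets, so no spread between replicates and no difference between conditions can be given. The protein was supplied by transfection and carried a GFP tag, by which it was pulled down. Values are whole numbers of cDNAs at nucleotides that passed the authors' threshold, on the mm9 build. Depth is known only for the pool. No marker of cardiomyocytes could be checked, because the list holds no expression values and the annotation at hand describes GRCm38, another build. The positions below are 1-based mm9 positions without gene names, and no sequence was read at them.

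SR proteins bind RNA through RNA recognition motifs, and their arginine and serine-rich tails recruit other parts of the splicing machinery. They are best known for binding short sequences in exons and helping splice sites be recognised, and members of the family also take part in RNA export and translation. Because cDNAs tend to end where the protein was fixed, a narrow pile of cDNA starts marks a contact. A wide run can hold several such piles, on the same RNA or on overlapping RNAs.

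The 12 runs held 1126 sites and 5476 cDNAs. That was 3.42% of the 32891 nuclear sites, a share given without an interval because the number of sites chose the runs. The runs held 6.20% of the 88289 nuclear cDNAs (95% exact interval 6.04% to 6.36%). Such intervals, here and below, cover counting error only and treat cDNAs or sites as independent. The runs lay on 10 chromosomes, 8 on the plus strand and 4 on the minus strand. Depth was uneven among them: the 4 runs with most cDNAs held 75.3% of the cDNAs of all 12. The 9 with most cDNAs, all under 500 nt wide, held 95.4%. The remaining 3 were 613 to 1845 nt wide and shallow.

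The run with most cDNAs was chr5:147072567-147072880 on the plus strand. Its 200 sites carried 1477 cDNAs over 314 nt, the fourth highest total of any nuclear run. Sites filled 63.7% of its nucleotides in 1 unbroken cluster, and the longest stretch with a site at every nucleotide was 39 nt. The tallest pile lay on its 3′ side: nucleotide 258 of the run, at 147072824, held 112 cDNAs, or 7.58% of the run (95% exact interval 6.28% to 9.05%), and the nucleotide before it held 73. Further 3′, nucleotide 275 held 46. A separate pile stood at the very 5′ edge, where nucleotide 4 held 56 cDNAs. Of the run's cDNAs, 54.2% lay in its densest 100 nt, from nucleotide 184 to 283. The interval at the highest nucleotide, here and below, takes no account of picking that nucleotide as the highest.

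The second run, chr11:108872981-108873416 on the minus strand, had the most sites of the 12, 216, with 1212 cDNAs over 436 nt. Its cDNAs were spread over a series of piles. The highest nucleotide, at 108873093, held 59 cDNAs, 4.87% of the run (3.73% to 6.23%). The 5 highest nucleotides of this run together held 15.7%, against 22.0% in the chromosome 5 run. Nearly all of it was 1 cluster of 383 nt with 1207 cDNAs, and 2 sites with 5 cDNAs lay apart at its 5′ end.

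On the plus strand at chr3:5860369-5860807, 133 sites carried 761 cDNAs over 439 nt, almost the width of the chromosome 11 run. Here the cDNAs were gathered at the 3′ side. When the run was divided into 3 equal parts from 5′ to 3′, the parts held 3.94%, 24.6% and 71.5% of cDNAs. Nucleotides 278 and 428 of the run were equally high, with 57 cDNAs each, 150 nt apart. Upstream of the main cluster lay a cluster of 15 sites with 30 cDNAs and another of 2 sites with 1 cDNA each.

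The fourth deep run, chr16:57391577-57391796 on the minus strand, was narrower, with 96 sites and 676 cDNAs over 220 nt. It fell into 2 clusters of near equal weight. The 5′ cluster of 53 nt held 316 cDNAs and the 3′ cluster of 114 nt held 360. The tallest nucleotides of the 5′ cluster, 36 and 4 counted from the 5′ end, held 51 and 47 cDNAs, and nucleotide 119 in the 3′ cluster held 39. Only 20.8% of its sites had a single cDNA, the lowest share of the 12.

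**Figure D1:**
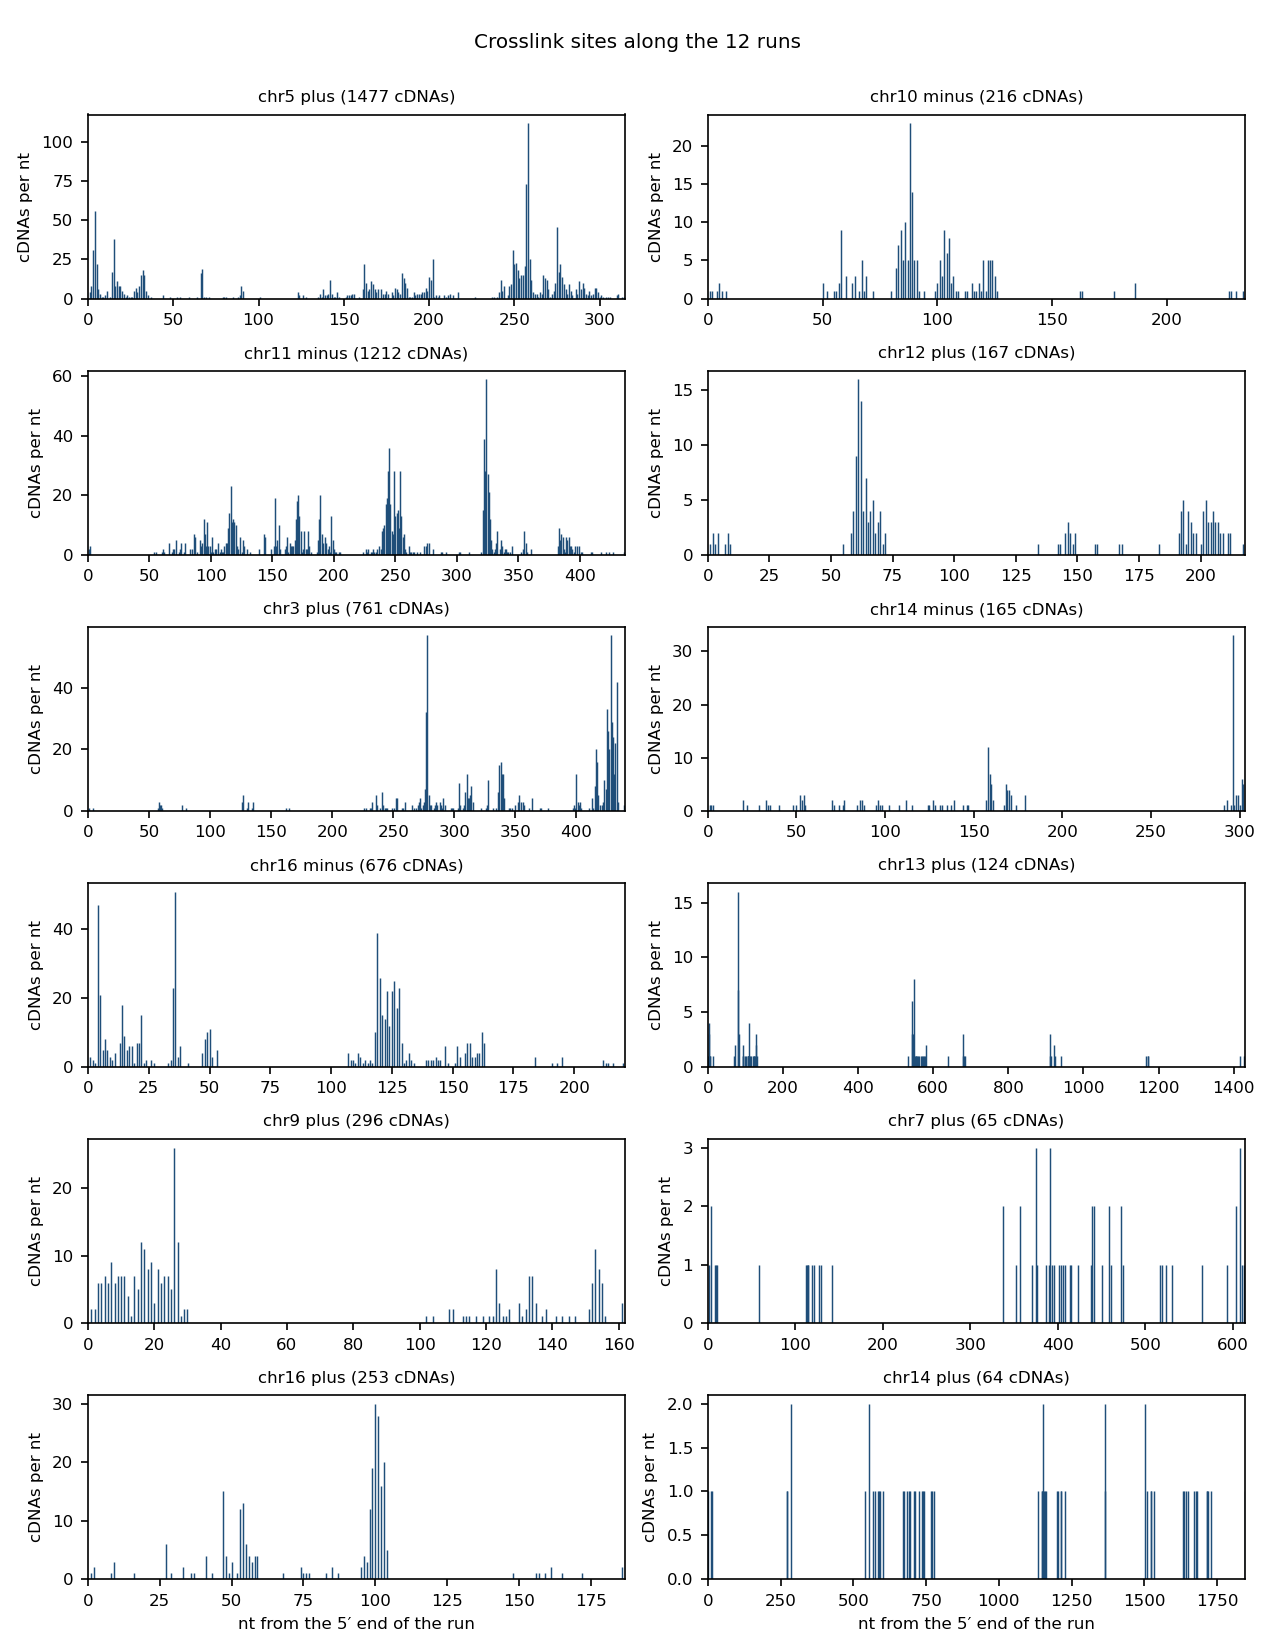
Pooled cDNAs per nucleotide (vertical axis, linear, scaled panel by panel) along each of the 12 runs, against the distance in nt from the 5′ end of the run on its own strand; each line is 1 site. The chromosome 5 run reaches 112 cDNAs at 1 nucleotide, the chromosome 16 plus-strand run has its 5 highest nucleotides side by side, and the chromosome 14 plus-strand run does not exceed 2.

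In the order of cDNAs, 5 compact runs of middle depth followed, each between 161 and 302 nt wide with 165 to 296 cDNAs. In chr9:123371067-123371227 (plus strand, 65 sites, 296 cDNAs), the narrowest of the 12, the first 30 nt had a site at every nucleotide and held 201 cDNAs, or 67.9% of the run. A second cluster of 60 nt began after a step of 72 nt and held 95 cDNAs. The highest nucleotide of this run held 26 cDNAs, at position 26 of the unbroken stretch.

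The next run, chr16:17222380-17222565 on the plus strand, had exactly 50 sites, the minimum, and 253 cDNAs. Its tallest pile was sharp. The 5 highest nucleotides, 17222478 to 17222482, were adjacent and held 19, 30, 28, 16 and 20 cDNAs in that order, 44.7% of the run in all. Within 5 nt of the highest nucleotide lay 54.9% of its cDNAs, the largest such share among the 12, and 6 nucleotides were enough to hold 50%. A lower group of sites lay upstream, and the part nearest the 5′ end, of 3 equal parts, held 37.2% of cDNAs. The densest 100 nt held 94.9%.

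In chr10:82417931-82418163 on the minus strand, 66 sites carried 216 cDNAs over 233 nt. Its middle part, of 3 equal parts, held 76.4% of cDNAs, and its densest 100 nt held 92.6%. The highest nucleotide, at 82418076, held 23 cDNAs (10.6%, interval 6.87% to 15.5%), and 38.9% of cDNAs lay within 5 nt of it. Lower piles stood on both sides, with 9 cDNAs at nucleotides 58 and 103.

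The run at chr12:79451852-79452068 on the plus strand was in 2 clusters, like those on chromosomes 9 and 16 minus. Its 57 sites carried 167 cDNAs, 91 in a 5′ cluster of 72 nt and 76 in a 3′ cluster of 84 nt. The 5′ cluster was the sharper, with 16 cDNAs at its highest nucleotide against 5 in the 3′ cluster.

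In chr14:51427145-51427446 on the minus strand, 67 sites carried 165 cDNAs over 302 nt. A single nucleotide near its 3′ end, at 51427151, held 33 cDNAs, or 20% of the run (14.2% to 26.9%), the highest share of the 12. The cluster around it was only 12 nt wide and held 56 cDNAs at 10 sites. The longer 5′ cluster of 179 nt was shallow by comparison, with 109 cDNAs at 57 sites and at most 12 at any of them.

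The 3 widest runs were thin, with 3, 7 and 9 clusters, and the word dense describes them less well. In chr13:34994465-34995893 (plus strand), 66 sites with 124 cDNAs lay in 7 clusters over 1429 nt, 4.62 sites per 100 nt against 22.2 to 63.7 in the 9 compact runs. The 2 heaviest of its clusters, of 62 and 50 nt, held 55 and 35 cDNAs, and its highest nucleotide held 16. The cluster 5′ of these 2 held 12 cDNAs, and those 3′ of them held 7, 9, 3 and 3.

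In chr7:51740138-51740750 (plus strand), 51 sites carried 65 cDNAs over 613 nt, and 3 nucleotides shared the highest value, 3 cDNAs. Of these cDNAs, 49 lay in the 3′ cluster of 277 nt. This was the only run of the 12 with other sites in its region: 3 small clusters lay 7099 to 8281 nt upstream, with 9 sites and 12 cDNAs in all.

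The widest run, chr14:55587580-55589424 (plus strand), had 59 sites and only 64 cDNAs, in 9 clusters over 1845 nt. No nucleotide held more than 2 cDNAs, and 91.5% of its sites had a single cDNA. Sites covered 3.20% of its nucleotides and no stretch with a site at every nucleotide exceeded 3 nt.

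**Figure D2:**
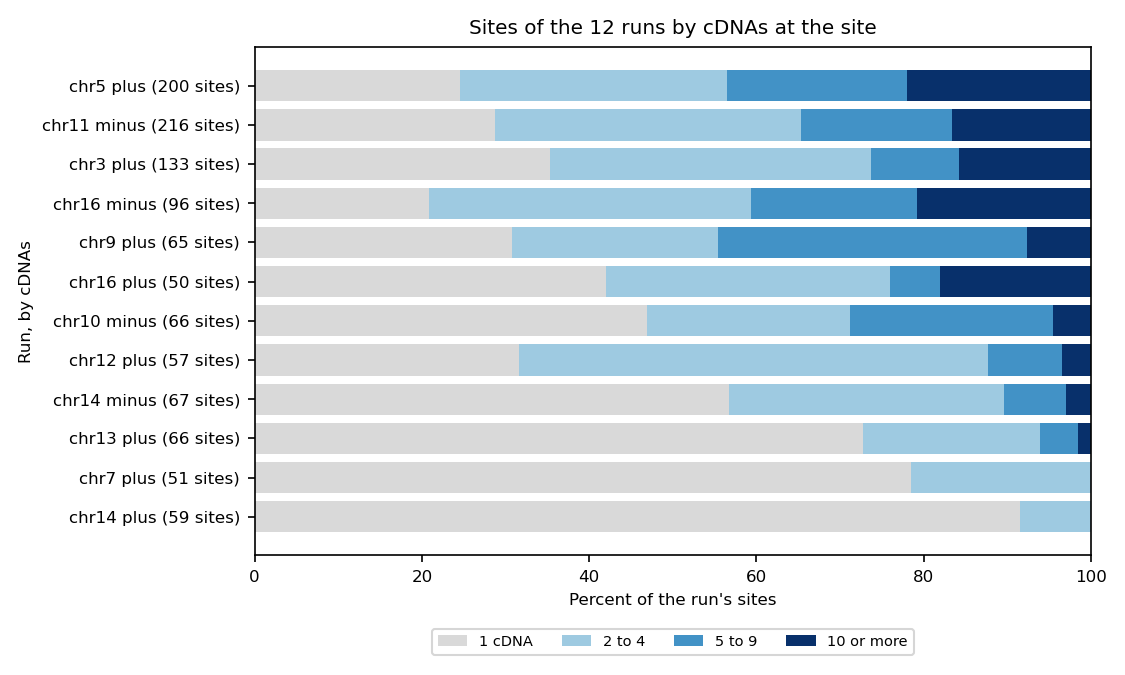
Percent of the sites of each run (horizontal axis) with 1, 2 to 4, 5 to 9, and 10 or more cDNAs, with the 12 runs from most (top) to fewest cDNAs. Single-cDNA sites range from 20.8% in the chromosome 16 minus-strand run to 91.5% in the chromosome 14 plus-strand run, and the bottom 2 runs have no site of 10 or more.

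Across the 12 runs, 39.8% of sites had a single cDNA (95% exact interval 36.9% to 42.7%), against 66.5% (66.0% to 67.0%) of the nuclear sites outside them. Sites of 10 or more cDNAs made up 12.7% (10.8% to 14.8%) in the runs and 4.49% (4.27% to 4.73%) outside. Without the 2 loci that the choice of runs left out, the outside shares were 68.7% and 3.26%. These shares are not independent of the choice, since the authors judged each nucleotide together with its neighbours within 15 nt, and the number of sites chose the runs. The intervals treat neighbouring sites as independent and leave out the spread among runs. Single-cDNA sites ranged from 20.8% to 91.5% of a run's sites, which the pooled share hides. The median site had 4 cDNAs in the chromosome 5 run and 1 cDNA in 4 of the 12 runs, those on chromosomes 7, 13 and both strands of 14.

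The fine shape around the highest nucleotide varied among the runs. In 8 of the 12 a direct neighbour of the highest nucleotide was among the 5 highest of the run. The exceptions were both chromosome 14 runs, the chromosome 7 run and the chromosome 16 minus-strand run. This count is not given for other nuclear runs, so it is not shown to be particular to the 12. In the chromosome 11 run the neighbour, with 28 cDNAs, was tied with other nucleotides for the last places among the 5. Within 5 nt of the highest nucleotide lay 12.9% to 54.9% of the cDNAs in the 9 compact runs, and 3.12% to 21.0% in the 3 wide ones. The nucleotides needed to hold 50% of the cDNAs numbered between 6 and 30 in every run, but similar numbers came from unlike shapes. The chromosome 5 run needed 26 of its 200 sites. The chromosome 14 plus-strand run needed 27 of its 59 sites, none with more than 2 cDNAs.

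No end of the run was favoured throughout. The part with most cDNAs, of 3 equal parts, was the 5′ part in 4 runs, the middle in 5 and the 3′ part in 3. The highest nucleotide lay at 5.60% of the width in the chromosome 13 run and at 98% in the chromosome 14 minus-strand run, counted from the 5′ end. With 12 runs these counts are a description only.

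Few sites or none lay near each run on its own strand. This follows in part from the choice, since a region joins clusters over gaps under 20 kb and had to hold fewer than 10. In 11 of the 12 no other site lay within 20 kb on that strand, and the nearest same-strand site was 24060 nt away for the chromosome 14 plus-strand run and 2519982 nt away for the chromosome 3 run. The opposite strand held no site inside the 12 runs, and for 9 of them it held none within 20 kb. Such counts, on either strand, are not given for other nuclear runs, so they are not shown to be particular to the 12. For the chromosome 10 run, 3 opposite-strand sites with 1 cDNA each began 97 nt from its edge. For the chromosome 16 plus-strand run, 8 opposite-strand sites lay 16412 nt away. The chromosome 14 plus-strand run began 2877 nt beyond a minus-strand region of 48 clusters with 2347 cDNAs, so that the plus-strand run and that region point away from each other.

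As the nearest comparison, 2 other sets of dense nuclear runs were described by the same measures. The 22 runs of 50 or more sites and over 100 nt wide in regions of 10 or more clusters had a median of 1.37 cDNAs per site (range 1.07 to 6.36), against 3.91 (1.08 to 7.39) in the 12 runs. The exact 95% intervals of these medians, from the ranks of the runs, were 1.24 to 1.73 and 1.88 to 5.72. They treat the runs as independent and are no test between the sets. The ranges overlapped: 10 of the 12 lay within the range of the 22 and 2 above it, and 10 of the 12 lay above the median of the 22. The upper end of that range was a single run at 6.36, and the next of the 22 had 2.23. The highest nucleotide held a median of 8.18% of the cDNAs in the 12 runs (3.12% to 20%) and 2.45% in the 22 (0.492% to 5.41%), and 9 of the 12 lay above all 22. The 22 runs were longer, with a median width of 2239.5 nt against 308 nt, and had a median of 130 sites against 66, so the shares are not matched for the number of sites. They come from 10 regions, so several share a region, and the interval of their median may be too narrow. The 5 runs of at most 100 nt had a median of 6.64 cDNAs per site (4.30 to 20). Their highest nucleotide held a median of 12.3% (5.26% to 21.6%), and only 2 of the 12 runs lay above that median. Because width and clusters chose the sets, no test was made between them.

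**Figure D3:**
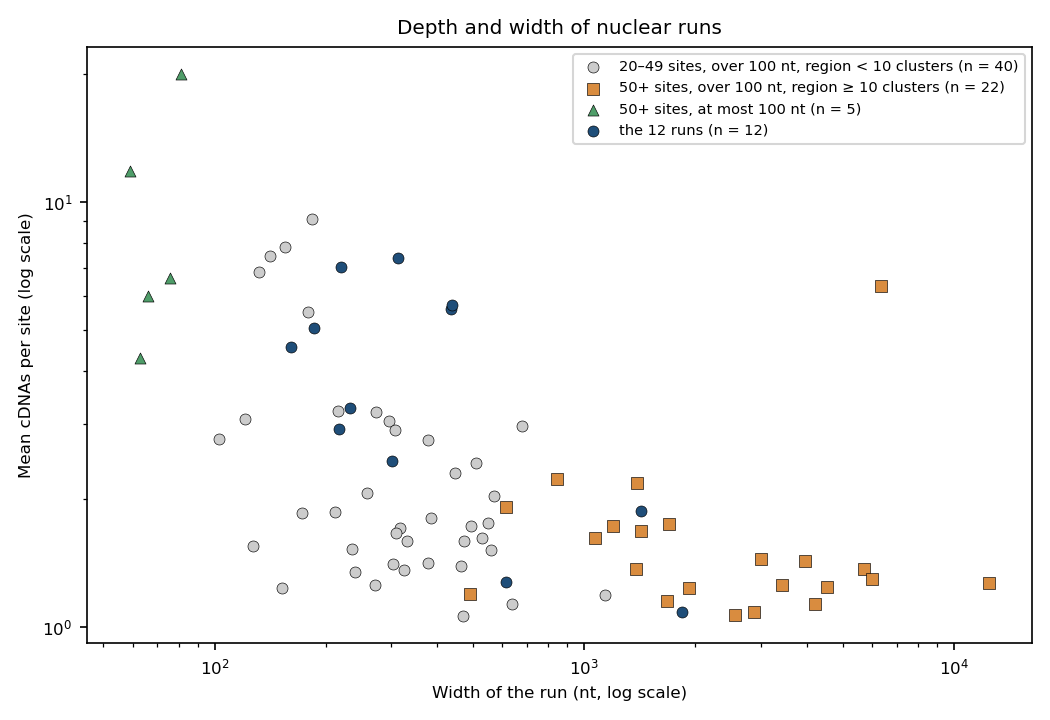
Mean cDNAs per site against the width of the run in nt, both on log scales; each point is 1 nuclear run, with the 12 runs in blue and 3 other sets of runs by symbol. Of the 12 runs, 9 lie between 161 and 439 nt and between 2.46 and 7.39 cDNAs per site, and the other 3 lie among the runs of regions of 10 or more clusters. The 40 runs of 20 to 49 sites, 103 to 1141 nt wide with 1.06 to 9.14 cDNAs per site, overlap both groups in part.

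The runs just inside and just outside the limits are given here as values. The runs with 50 and 51 sites, on chromosomes 16 plus and 7, had 253 and 65 cDNAs. Below the limit, 2 runs on the minus strand of chromosome 2 at 22599963 and 113876352 had 48 sites each with 143 and 68 cDNAs, and a run on chromosome 13 minus at 58498954 had 42 sites with 68 cDNAs. The 40 wide runs of 20 to 49 sites in regions of fewer than 10 clusters had a median of 1.78 cDNAs per site (1.06 to 9.14) and a median width of 308.5 nt. Their highest nucleotide held a median of 13.3% of cDNAs (6.45% to 33.1%), above the 8.18% of the 12 runs, of which 1 exceeded that median. These 40 runs had a median of 27 sites and 55 cDNAs, against 66 and 234.5 in the 12, so these shares are not matched either. The widest run at or under 100 nt, on chromosome 9 minus at 78023141, was 81 nt wide and carried 1559 cDNAs at 78 sites, and the next were 76 and 66 nt wide. No dense wide run lay in a region of 10 to 12 clusters, and the lowest number of clusters above the limit was 16.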

How the data were processed

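The authors deposited 1 list of crosslink positions whose value is a score, a signed whole number of cDNAs with the sign marking the strand, added up over 5 data sets, as its header states. The labels list 4 libraries, and no source used here says how the 5 map onto them. Per the file header, the list was limited to an FDR below 0.05, estimated by 100 permutations in a neighbourhood of 15 nt and separately by region, on mm9 with Ensembl release 59. The submitters' processing notes name Bowtie 0.10.1. RNA was trimmed to 80 to 200 nt, per the labels' protocols. No source used here gives the handling of duplicates or of reads mapping to several places, and how much of a run's depth either could add was not tested.

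Runs, clusters and regions were rebuilt with Python 3.11.15, numpy 2.4.6 and pandas 2.3.3; intervals are 95% exact (Clopper-Pearson) from scipy 1.17.1, and intervals of medians use exact binomial ranks. The grouping was tested on simulated runs that each lay alone in their region. The joining of several runs into a region and the loci left out by position were not part of that test. All 12 runs are named. Full values were due to the extremes in cDNAs, depth per site, width and peak share. The runs, the rule and the measures were chosen with earlier results of these data known. Sites were not split by library, so no replicate test was made.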

Additional observations from a re-analysis of the deposited data

How the results depend on the processing

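The number of runs, 12, was between 8 and 15 in 11 alternatives of run gap, minimum sites, width, region and cluster limits, and 4 when runs were rebuilt from sites of 2 or more cDNAs. Those 4, on chromosomes 3, 5, 11 and 16 minus, also belong to the 12. The share of nuclear cDNAs in the runs, 6.20%, was 5.85% with a run gap of 100 nt, 7.09% with 1000 nt, 6.52% with 40 or more sites, 5.58% with 60 or more and also with a width over 200 nt, 5.92% with fewer than 5 clusters per region, 6.995% with fewer than 20 and 6.93% with a cluster distance of 100 nt; these alternatives add or remove runs. With sites of 2 or more cDNAs it was 5.92% for rebuilt runs and 7.54% for the 12 runs. The median of 3.91 cDNAs per site stayed between 2.98 and 5.71 in 12 alternatives and was 8.47 for runs rebuilt from sites of 2 or more cDNAs, which leaves out the single-cDNA sites by construction. The median share at the highest nucleotide, 8.18%, stayed between 7.56% and 11.4% in all 13 alternatives run. The median share in the densest window, 55.3% for 100 nt, was 47.4% for 50 nt and 74.1% for 200 nt, the last over the 10 runs at least that wide. No paired analysis was possible because the list is pooled, and no library could be left out in turn for the same reason. Depth per library is unknown, and whether runs below the limits were undersampled was not tested.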
